A study of Mus musculus with 7 samples.

Results

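Plasmacytoid dendritic cells (pDCs) are the immune cells that release large amounts of type I interferon when their endosomal sensors meet foreign nucleic acids. 9 genes known for their expression or function in mouse pDCs were examined in lineage-negative Sca1+ cKit+ (LSK) cells of the bone marrow (BM), the population that holds the hematopoietic stem cells and multipotent progenitors. The members were the rows of the deposited table with the symbols Siglech, Ccr9, Irf8, Tcf4, Spib, Runx2, Klk1, Ly6d and Cd209d, and all 9 were found, of 48440 rows in all. The table held 4 wild-type and 3 PROSER1 KO libraries. C57BL/6 recipients were irradiated (9.5 Gy) and given unfractionated BM of wild-type donors or of donors with a constitutive endonuclease-mediated PROSER1 KO, and LSK cells were sorted at day 77. The animals received no further treatment, donor and recipient ages for these libraries were not given in the sources used here, and all samples of both groups passed through irradiation and transplantation. The methods name no donor marker for this sort, so that LSK cells which the recipients may have kept cannot be told apart from donor cells. The labels call the libraries biological replicates.

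pDCs develop in the BM from Flt3+ progenitors, and both lymphoid and myeloid progenitors have been described as a source. Tcf4 (E2-2), a basic helix-loop-helix E protein that binds E-box motifs, is the factor that sets and keeps pDC identity, and the inhibitor Id2 opposes it. Irf8, Spib and Runx2 act beside it, while Siglech and Ccr9 mark the surface of the cells. Several of these factors are also used by progenitors and by other lineages, so that a transcript of a member in LSK cells is not by itself evidence of a pDC.

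RefSeq promoter windows of 300 bases (GRCm38.p6), from 250 bases before to 50 bases after a gene's start, were matched by symbol for 7 of the 9 members. Windows are shown for Siglech and Ccr9, surface genes that were detected and varied together across libraries, and for Klk1 and Cd209d, which had no read in any library. They read 5′ to 3′ on the strand of the gene, and capitals mark matches to an E-box of the kind preferred by E proteins (CAGCTG or CAGGTG), to a Spi-type Ets motif (GAGGAA) or to a Runx motif (TGTGGT or TGCGGT), each on either strand.
Siglech, chr7:55767934-55768233, forward strand: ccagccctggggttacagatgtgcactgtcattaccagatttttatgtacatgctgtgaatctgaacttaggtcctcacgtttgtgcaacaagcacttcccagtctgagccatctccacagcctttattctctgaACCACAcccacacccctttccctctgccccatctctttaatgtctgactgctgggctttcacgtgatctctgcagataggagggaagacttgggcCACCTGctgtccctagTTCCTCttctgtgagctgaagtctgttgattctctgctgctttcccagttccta
Ccr9, chr9:123766961-123767260, forward strand: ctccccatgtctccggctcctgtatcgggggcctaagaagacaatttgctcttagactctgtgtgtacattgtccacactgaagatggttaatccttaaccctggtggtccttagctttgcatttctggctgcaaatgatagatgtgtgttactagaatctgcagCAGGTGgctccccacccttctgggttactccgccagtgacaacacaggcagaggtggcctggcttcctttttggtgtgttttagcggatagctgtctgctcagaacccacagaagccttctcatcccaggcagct
Klk1, chr7:44225110-44225409, forward strand: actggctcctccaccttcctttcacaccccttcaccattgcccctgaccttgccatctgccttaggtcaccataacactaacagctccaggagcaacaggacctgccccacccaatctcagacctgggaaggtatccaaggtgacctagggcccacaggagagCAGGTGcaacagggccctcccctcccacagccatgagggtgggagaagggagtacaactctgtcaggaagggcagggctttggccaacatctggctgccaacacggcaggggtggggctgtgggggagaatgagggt
Cd209d, chr8:3878450-3878749, reverse strand: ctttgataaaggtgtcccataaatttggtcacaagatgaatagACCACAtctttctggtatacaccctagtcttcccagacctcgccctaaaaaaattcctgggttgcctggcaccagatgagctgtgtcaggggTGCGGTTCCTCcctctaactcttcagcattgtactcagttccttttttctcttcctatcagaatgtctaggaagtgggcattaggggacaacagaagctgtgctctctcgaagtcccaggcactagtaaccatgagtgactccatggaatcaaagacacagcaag

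The Siglech window held 1 preferred E-box that begins 20 bases before the start, 1 Spi-type match that begins 4 bases before it and 1 Runx match that begins 115 bases before it. The Ccr9 and Klk1 windows each held 1 preferred E-box and no match to the other capitalised motifs. In the Cd209d window 2 Runx matches and 1 Spi-type match were found, and the Spi-type match shares a base with one of the Runx matches. Among all 32851 promoter windows in the table, 32.95% held the preferred E-box, 28.28% the Spi-type motif and 22.41% the Runx motif. The wider E-box CANNTG, which contains the preferred form, was present in 72.31% of windows and was found 3 times for Siglech, 2 times for Ccr9, 3 times for Klk1 and 1 time for Cd209d. Of the windows not shown, that of Runx2 held 4 Runx matches, that of Spib held none of the capitalised motifs, and Irf8 has 2 windows, of which the upstream one held no match and the other held 1 preferred E-box and 1 Runx match. These matches describe letters in a window and not a bound site, and the detected and undetected members were not separated by the presence of the preferred E-box.

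Values are normalised counts, that is, read pairs per gene divided by 1 size factor per library. Each library held 33143619 to 45140743 read pairs assigned to genes. A gene counted at 0 may have had up to 3 read pairs, or 2.54 to 3.48 normalised counts, a limit that covers counting error only. Proser1 ranged from 2019.4 to 2153 in wild-type libraries and from 2338 to 2464 in the libraries labelled PROSER1 KO (limma adjusted p = 0.204), so it was not lower in those libraries, and every direction below rests on the labels. Which part of the gene the KO removes was not given in the sources used here. Of the antigens of the sort gate, Kit lay between 25535 and 32357 and Ly6a (Sca1) between 3961 and 6822 normalised counts. Plasma cell transcripts were also abundant, and Jchain, the joining chain of secreted immunoglobulin, ranged from 151607 to 384345. In bulk RNA, fewer cells of a type and less RNA per cell cannot be told apart.

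Of the 9 members, 7 were expressed and tested, and 2 had no read pair in any of the 7 libraries. Klk1, a tissue kallikrein serine protease whose transcript is high in mouse pDCs, was at 0 in each library, and so were the 13 Klk1b genes, its close copies on chromosome 7. Cd209d, a C-type lectin related to DC-SIGN, was at 0 as well. Among the other 6 genes of its family, Cd209b and Cd209e were at 0 and the remaining 4 reached at most 9.31 normalised counts, and the family summed to 0 to 3.85 in wild-type libraries and to 1.92 to 13.5 in those labelled PROSER1 KO. How reads that map to several copies were treated is not given in the sources used here. For Klk1 and Cd209d no fold change can be given, and in any single library a level under the limit of 3 read pairs may have gone uncounted. The type I interferon genes Ifna1, Ifna2, Ifna4 and Ifnb1, the products for which pDCs are known, were also at 0 in all 7 libraries.

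The expressed members spanned a wide range. Per kilobase of exon, taken as the union of all GENCODE exons of a gene, Ly6d stood at 3158 ± 1081 normalised counts (SD over 7 libraries), Runx2 at 701 ± 43.8, Irf8 at 610 ± 102, Tcf4 at 337 ± 35.1, Ccr9 at 66.1 ± 17.1, Siglech at 37.3 ± 18.7 and Spib at 15.7 ± 9.35. Every neighbouring pair in this order kept its order in 7 of 7 libraries except Runx2 and Irf8, which did so in 5 of 7, so that these factors did not differ beyond their spread. Union length lowers the value of genes with many transcripts, and Tcf4 has 62 annotated transcripts over 27382 exonic bases. Thus 3 of the transcription factors, Irf8, Tcf4 and Runx2, were strongly expressed in LSK cells. By mean normalised count, without regard to gene length, each lay above at least 92.1% of the genes with a read in any library. On the same measure Ly6d lay above 84.1%, Ccr9 above 67.1%, the pDC surface receptor Siglech above 55.5% and Spib above 49.4%.

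**Figure D1:**
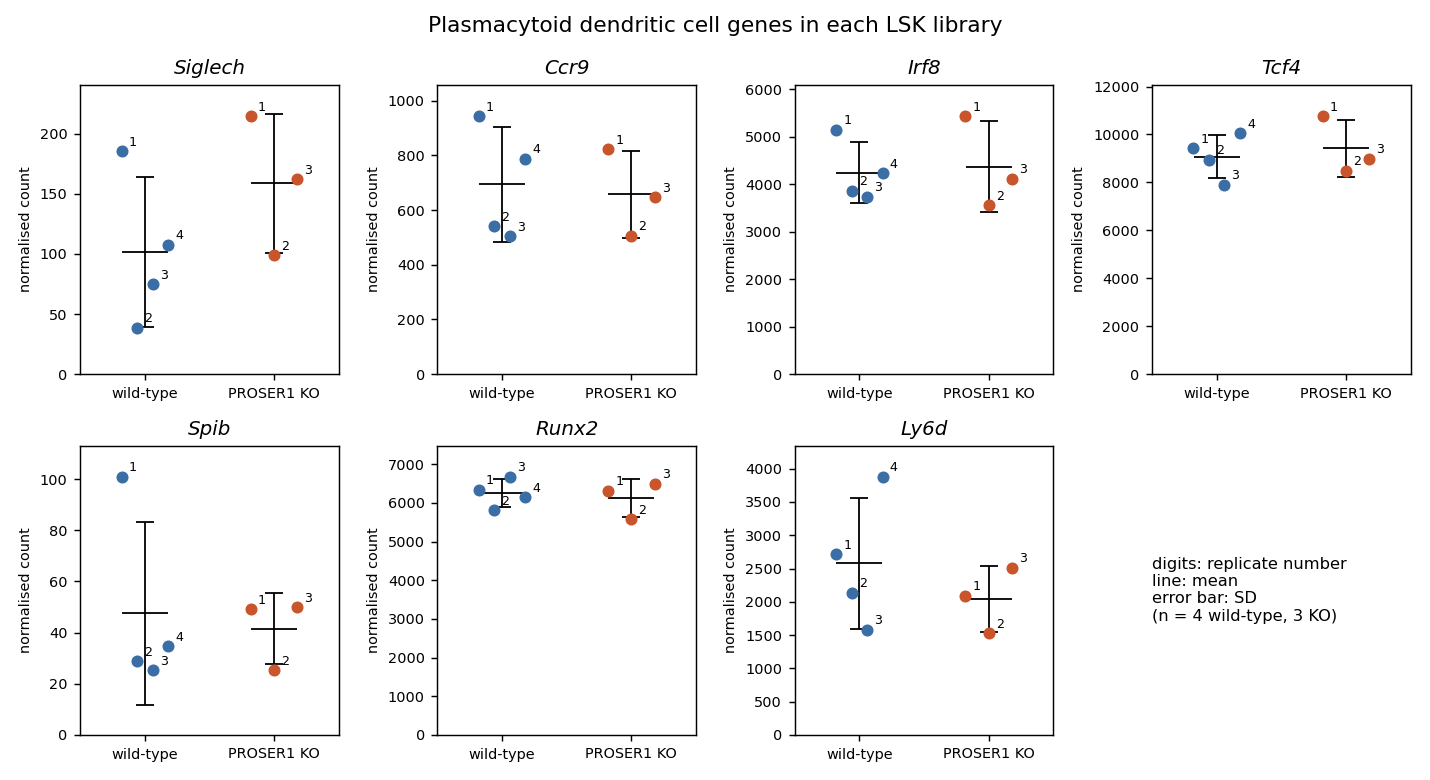
Normalised counts (vertical axes, each starting at 0) of the 7 expressed members in wild-type (blue) and PROSER1 KO (orange) libraries. Digits give the replicate number, lines the mean and error bars the SD (n = 4 and 3). The groups overlap for every gene, and replicate 2 is the lowest of the libraries labelled PROSER1 KO in each panel.

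Siglech (ENSMUSG00000051504, chromosome 7, 55768178 to 55778925, forward strand in GRCm38) encodes a sialic acid-binding lectin that serves as the standard surface marker of mouse pDCs. In order of replicate number, the wild-type libraries had 186, 38.8, 74.7 and 108 normalised counts and those labelled PROSER1 KO had 215, 99.0 and 162, from 43 to 206 read pairs per library. Wild-type replicate 1 lay among the libraries labelled PROSER1 KO and above 2 of them, so that the groups overlapped. Wild-type libraries averaged 102 ± 62.6 (SD, n = 4) and those labelled PROSER1 KO 159 ± 58.0 (SD, n = 3), and the log2 fold change was 0.78 (95% confidence interval -0.28 to 1.85, limma adjusted p = 0.632, two-sided exact permutation p = 0.257). The interval covers a fold of 0.822 to 3.61, so these libraries can neither show a rise nor set the level equal between the groups. Without wild-type replicate 2 the log2 fold change was 0.40, and without wild-type replicate 1 it was 1.14.

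Ccr9 (ENSMUSG00000029530, chromosome 9, 123678439 to 123784330, forward strand), the receptor for the chemokine Ccl25 and a marker of mature pDCs as well as of early lymphoid progenitors, was more abundant. Normalised counts were 944, 540.0, 503 and 787 in wild-type libraries and 823, 506 and 646 in those labelled PROSER1 KO. Both groups contained high and low libraries, and the highest and the lowest value were both wild-type. The log2 fold change was -0.05 (-0.58 to 0.47, limma adjusted p = 0.966, exact permutation p = 0.943), and its sign turned when wild-type replicate 1 or 4 or PROSER1 KO replicate 2 was left out. The annotated Ccr9 locus overlaps Lztfl1 on the other strand (mean normalised count 1773), and since the strand setting of the counting is not given, reads of overlapping exons cannot be assigned with certainty. Ccl25, its ligand and a listed gene named after its values were seen, was measured between 266 and 493 normalised counts over all libraries (adjusted p = 0.908).

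Ly6d (ENSMUSG00000034634, chromosome 15, 74762056 to 74763620, reverse strand), a GPI-anchored Ly6 protein that separates lymphoid progenitors and is carried by B-lineage cells and pDCs, was the member with the highest level per kilobase. It was at 2718, 2135, 1578 and 3880 normalised counts in wild-type libraries and at 2091, 1532 and 2513 in those labelled PROSER1 KO. Wild-type replicate 4 was higher than every other library, and the lowest libraries of both groups were nearly equal. The means of 2578 ± 985 (SD, n = 4) and 2045 ± 492 (SD, n = 3) gave a log2 fold change of -0.28 (-0.90 to 0.33, limma adjusted p = 0.784, exact permutation p = 0.429). Without wild-type replicate 4 the log2 fold change was -0.06.

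Among the transcription factors, Tcf4 (ENSMUSG00000053477, chromosome 18, 69343356 to 69689079, forward strand) was the member with the highest normalised count. It was at 9426, 8942, 7896 and 10049 in wild-type libraries and at 10774, 8494 and 8984 in those labelled PROSER1 KO. The highest library was PROSER1 KO replicate 1 and the lowest was wild-type replicate 3, with the rest interleaved. The log2 fold change was 0.05 (-0.17 to 0.27, limma adjusted p = 0.913, exact permutation p = 0.714), an interval that corresponds to a fold of 0.890 to 1.21.

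Irf8 (ENSMUSG00000041515, chromosome 8, 120736358 to 120756694, forward strand), the interferon-regulatory factor that marks dendritic cell and monocyte progenitors, was at 5149, 3864, 3736 and 4239 normalised counts in wild-type libraries and at 5442, 3562 and 4122 in those labelled PROSER1 KO. Replicate 1 of each group was higher than all other libraries. The means of 4247 ± 638 (SD, n = 4) and 4375 ± 966 (SD, n = 3) gave a log2 fold change of 0.03 (-0.30 to 0.36, limma adjusted p = 0.969, exact permutation p = 0.829), and the sign turned when wild-type replicate 2 or 3 or PROSER1 KO replicate 1 was left out.

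Spib (ENSMUSG00000008193, chromosome 7, 44525993 to 44532071, reverse strand), an Ets factor of the SPI subgroup that acts in pDCs and B cells, had the lowest level of the expressed members. Its normalised counts were 101, 28.8, 25.3 and 34.8 in wild-type libraries and 49.0, 25.4 and 49.9 in those labelled PROSER1 KO, from 22 to 105 read pairs per library. Wild-type replicate 1 stood far above all other libraries, and the remaining 3 wild-type libraries lay near the lowest of those labelled PROSER1 KO. The log2 fold change was -0.02 (-1.11 to 1.08, limma adjusted p = 0.996, exact permutation p = 1), and without wild-type replicate 1 it was 0.42. Spi1 (PU.1), its abundant relative in progenitors, was at 3275 ± 264 (SD, n = 4) and 3269 ± 143 (SD, n = 3) normalised counts (limma adjusted p = 0.999).

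Runx2 (ENSMUSG00000039153, chromosome 17, 44495987 to 44814797, reverse strand), a Runt-domain factor needed for the exit of pDCs from the BM, was the most even member. It was at 6345, 5807, 6678 and 6153 normalised counts in wild-type libraries and at 6319, 5575 and 6498 in those labelled PROSER1 KO. The log2 fold change was -0.03 (-0.18 to 0.12, limma adjusted p = 0.933, exact permutation p = 0.714), an interval that corresponds to a fold of 0.884 to 1.09. Its relative Runx1 (limma adjusted p = 0.979), the shared partner Cbfb (0.935) and Runx3 (0.550), the last named after its values were seen, did not pass the test either. Supt3 (mean normalised count 975) and the antisense gene Runx2os1 (154) overlap Runx2 on the other strand.

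None of the 7 expressed members passed the test between the groups. The test was limma over the 16251 genes whose mean normalised count reached 10, with calls at a Benjamini-Hochberg adjusted p under 0.05 and a fold change above 1.5, and it called 42 genes, 0.258% of those tested. edgeR (40 genes, 0.246%) and DESeq2 (165 genes, 0.865%) called 0 of the 7 members as well. The study itself used DESeq2 at these thresholds and also reported 165 genes. At an unadjusted p under 0.05 limma counted 0 of the 7, against 9.73% of all genes, and the groups did not overlap for 0 of the 7, against 10% of all genes. Counts this small among 7 genes are near what these shares give. By limma's estimates 3 members had positive and 4 had negative fold changes, with a median log2 fold change of -0.02 beside 0.0015 over all genes. In the exact permutation test 4 against 3 libraries cannot go below p = 0.0286. The confidence intervals of Tcf4, Irf8, Runx2 and Ccr9 lay inside a 1.5-fold change in both directions, whereas those of Siglech, Spib and Ly6d reached past it.

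**Figure D2:**
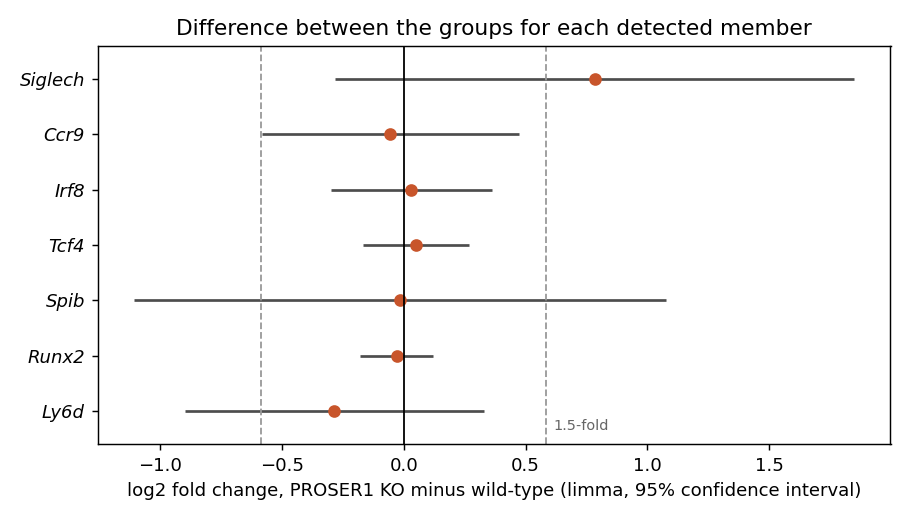
Log2 fold change of PROSER1 KO minus wild-type (horizontal axis) for the 7 expressed members, as points with 95% confidence intervals from limma; dashed lines mark a 1.5-fold change. All intervals include 0, from the widest for Spib (-1.11 to 1.08) to the narrowest for Runx2 (-0.18 to 0.12).

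The members differed in how much replicates of a group spread. On the scale of log2(normalised count + 1), the SD within groups was 0.81 for Siglech, 0.77 for Spib, 0.48 for Ly6d, 0.40 for Ccr9, 0.25 for Irf8, 0.16 for Tcf4 and 0.10 for Runx2, beside a median of 0.13 over all tested genes. Low counts spread more, so each member was also set beside genes within 2-fold of its mean. Ly6d then spread more than 98.2% of such genes, Ccr9 more than 97.0%, Siglech more than 96.7%, Irf8 more than 96.6%, Tcf4 more than 93.7%, Spib more than 91.7% and Runx2 more than 78.9%. All 7 expressed members thus varied more between libraries of the same genotype than most genes of their level. From the lowest to the highest library, Siglech differed 5.54-fold, Spib 3.99-fold, Ly6d 2.53-fold, Ccr9 1.88-fold, Irf8 1.53-fold, Tcf4 1.36-fold and Runx2 1.20-fold.

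**Figure D3:**
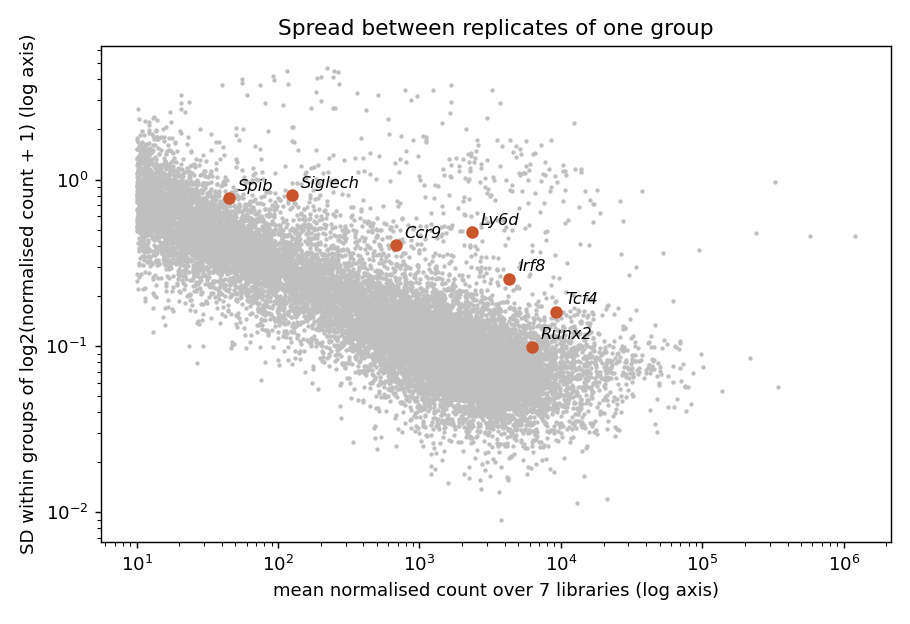
SD within groups of log2(normalised count + 1) against the mean normalised count of 16251 tested genes (grey, both axes logarithmic), with the 7 expressed members in orange. The members lie in the upper part of the cloud at their level, with Runx2 (SD 0.10) the lowest of them.

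This spread was shared. For Siglech, Ccr9, Irf8, Tcf4 and Spib the same 4 libraries, wild-type replicates 1 and 4 and PROSER1 KO replicates 1 and 3, were above the other 3. That order was read from Siglech after its values were seen, and of the other 6 expressed members 4 had it. Over all tested genes 639 had it, or 3.93%. These libraries come from both genotypes, so the shared order does not follow the groups, and no test was made of it. For Tcf4 it rests on a near tie, with PROSER1 KO replicate 3 at 8984 and wild-type replicate 2 at 8942 normalised counts. Tlr7 and Tlr9, the endosomal sensors of RNA and DNA in pDCs, had the same 4 libraries on top. So did Mef2c, Pacsin1 and Il7r, the genes Blnk, Cd22 and Cd79a of the B-lineage list, and Cd3d and Cd3e. None of the 14 tested conventional dendritic cell genes, the 8 plasma cell genes, the 9 granulocyte and monocyte genes or the 9 LSK gate genes did. Cd79a, though it had these 4 on top, was highest in wild-type replicate 4, as Ly6d was. There it stood 0.69 above its mean over 7 libraries on the log2 scale (Ly6d 0.79). In PROSER1 KO replicate 1, the highest library for Siglech, Cd79a stood at 0.11 and Ly6d at -0.10.

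PROSER1 KO replicate 1, where Siglech, Irf8 and Tcf4 were highest, also carried the T-cell receptor component Cd3g at 697 normalised counts, against 20.9 to 52.9 in the other libraries. The T and NK cell list as a whole summed to 2532 to 3409 in wild-type libraries and 2620 to 4002 in those labelled PROSER1 KO. Nkg7 is the largest term of this sum. No marker was at 0 in all libraries, and 0 of 10 tested genes were called by the same tools (1 at an unadjusted p under 0.05). Of these 10 genes, 4 had positive and 6 had negative fold changes, with a median log2 fold change of -0.12. Wild-type replicate 1, where Ccr9 and Spib were highest, and PROSER1 KO replicate 1 were the highest libraries for Dntt, the terminal transferase of lymphoid progenitors, at 44858 and 41391, against 27834 to 33477 in the others. The B-lineage list summed to 35062 to 54534 in wild-type libraries and 35774 to 52479 in those labelled PROSER1 KO, a sum in which Dntt is the largest term, and 0 of its 14 genes were called by limma, edgeR or DESeq2. At an unadjusted p under 0.05 there were 5 of 14, beside 9.73% of all genes, and all 5 (Ebf1, Pax5, Vpreb2, Igll1 and Rag1, genes of early B-cell development) had positive fold changes. Over the whole list 8 genes had positive and 6 had negative fold changes, with a median log2 fold change of 0.08. Igll1, part of the surrogate light chain, was at 21.2, 15.3, 12.6 and 6.96 normalised counts in wild-type libraries and at 70.9, 30.5 and 31.7 in those labelled PROSER1 KO, without overlap (log2 fold change 1.58, limma adjusted p = 0.288). Rag1, a recombinase subunit, was at 2920 in PROSER1 KO replicate 1 and between 686 and 1240 in all other libraries (log2 fold change 0.80, adjusted p = 0.512). Ms4a1, a gene of mature B cells, had a negative fold change that did not pass the test either (adjusted p = 0.540). These genes were named after their values were seen. The part of lymphoid transcripts in the members' values was not tested. The log2 fold change of Siglech, 0.78 with all libraries, was 0.53 without PROSER1 KO replicate 1 (limma adjusted p = 0.800). Without wild-type replicate 1 it was 1.14 (adjusted p = 0.565), and neither value passed the test.

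Ly6d had another set of 4 highest libraries, but only by a near tie. Wild-type replicate 2 (2135 normalised counts) lay just above PROSER1 KO replicate 1 (2091), which was in the set of Siglech. The 4 highest libraries of Ly6d were wild-type replicates 4, 1 and 2 and PROSER1 KO replicate 3. The same 4 were highest for 7 of 8 plasma cell genes (Jchain, Xbp1, Sdc1, Mzb1, Derl3, Tnfrsf17 and Slpi), beside 3.58% of all tested genes (581). Jchain was at 263799, 217345, 151607 and 384345 normalised counts in wild-type libraries and at 199467, 179939 and 269328 in those labelled PROSER1 KO. As with Ly6d, wild-type replicate 4 was the highest library, and wild-type replicate 3 and PROSER1 KO replicate 2 were the lowest pair. Xbp1, the factor of the secretory program, was at 21583 in wild-type replicate 4 and at 10371 in wild-type replicate 3. The B-cell genes Cd79b and Ms4a1, Irf4, the Ly6 genes Ly6c2 and Ly6a (Sca1, an antigen of the sort gate) and the Siglec family gene Mag had the same 4 libraries on top. The 8 plasma cell genes summed to 170849 to 427228 in wild-type libraries and 199997 to 298351 in those labelled PROSER1 KO, all 8 had lower fitted values in the latter, and 0 were called (0 at an unadjusted p under 0.05, 0 by edgeR and 0 by DESeq2). The part of plasma cell RNA in the Ly6d values was not tested.

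**Figure D4:**
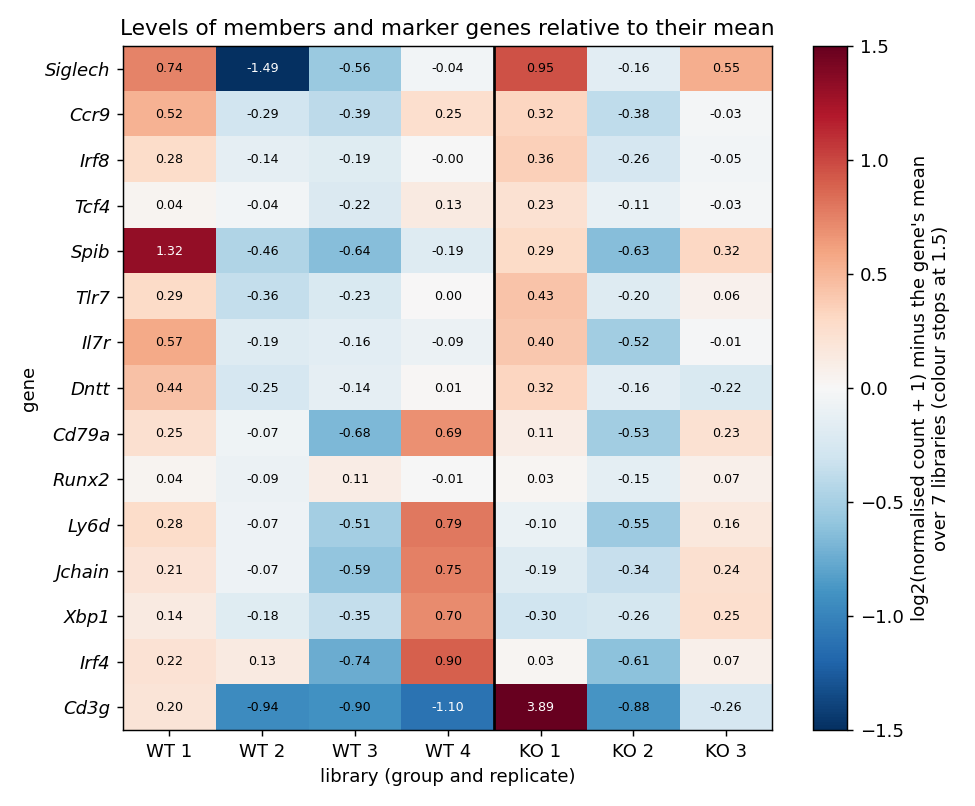
Level of the 7 expressed members and 8 other genes in each library, as log2(normalised count + 1) minus the mean of the gene over 7 libraries (red above, blue below, values printed; colour stops at 1.5). Siglech, Ccr9, Irf8 and Spib are high in replicate 1 of both groups. Tcf4 is high in PROSER1 KO replicate 1 (0.23) but near its mean in wild-type replicate 1 (0.04). Ly6d follows Jchain, Xbp1 and Irf4 with its highest value (0.79) in wild-type replicate 4. Cd79a also has its highest value (0.69) there.

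The genes most like Siglech were sought by the Pearson correlation of log2(normalised count + 1) over the 7 libraries, among 13096 genes whose mean reached 50, members left out. With 7 points that share depth and cell make-up this is a description only. Lmbrd2 (0.96), Pik3r6 (0.96), Mmd (0.95), Trem1 (0.95), Slain2 (0.94), Col19a1 (0.94), Gab3 (0.93), Ccdc43 (0.93), Fam234b (0.93) and Lyn (0.93) came first. Trem1, a receptor of myeloid cells, ranged from 27.0 to 103 normalised counts, and Pik3r6, a regulatory subunit of phosphoinositide 3-kinase gamma, from 89.2 to 189. Lyn, a Src family kinase, ranged only from 2667 to 3057. Tlr7 was next, at rank 11 (0.93), and was at 1177, 750.0, 822 and 963 normalised counts in wild-type libraries and at 1299, 840.3 and 1005 in those labelled PROSER1 KO.

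The other genes of the pDC program were taken as lists. Of 12 transcriptional regulators, limma called 0, 9 had positive and 3 had negative fold changes, with a median log2 fold change of 0.03. At an unadjusted p under 0.05 there were 2 (Zeb2 and Id2), beside 9.73% of all genes. Of the 12 regulators, the 3 with the highest mean were Ikzf1 (Ikaros, adjusted p = 0.987), Mef2c (0.962) and Tcf3 (E2A, 0.869). Id2, the inhibitor of E proteins that opposes Tcf4, was singled out after its values were seen. It was at 1104, 720.3, 640.2 and 660 normalised counts in wild-type libraries and at 523, 441 and 459 in those labelled PROSER1 KO, so the groups did not overlap. Its log2 fold change was -0.69 (-1.08 to -0.29), which limma did not call (adjusted p = 0.213), nor did edgeR (0.220). DESeq2, the tool of the study, did call it (adjusted p = 0.00179). The libraries are the study's own, so this is not independent evidence. Id1 and Id3, the other Id genes of the list, named after their values were seen, had positive log2 fold changes of 0.95 and 0.32. Neither passed the test (limma adjusted p = 0.651 and 0.844), at mean normalised counts of 19.8 and 32.6.

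Of 13 surface and effector genes 0 were called by limma, edgeR or DESeq2 and 0 had an unadjusted p under 0.05, with 7 higher, 6 lower and a median log2 fold change of 0.03. Ptprs (a receptor phosphatase restricted to pDCs among dendritic cells) and Bst2 (tetherin, the antigen used to sort mouse pDCs) were among the most abundant. Bst2 stood at 1886 ± 70.8 (SD, n = 4) and 2050 ± 103 (SD, n = 3) normalised counts (limma adjusted p = 0.533). Cox6a2, a cytochrome oxidase subunit found in pDCs and named here after its values were seen, was at 434, 284, 231 and 256 in wild-type libraries and at 541, 287 and 420 in those labelled PROSER1 KO. Its highest libraries were replicate 1 of each group, as for Irf8, and its log2 fold change of 0.46 did not pass the test (adjusted p = 0.594).

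Of the 14 genes of nucleic acid sensing and type I interferon, 10 were tested and 0 called by limma, edgeR or DESeq2 (0 at an unadjusted p under 0.05), with a median log2 fold change of 0.03. Irak1 (adjusted p = 0.657), Unc93b1 (0.872) and Traf6 (0.905), parts of the Toll-like receptor pathway, had the highest means. Tlr7 and Tlr9, named after their values were seen, had log2 fold changes of 0.17 (adjusted p = 0.795) and 0.10 (0.934). Transcripts of these sensors and adaptors were thus present in the libraries, where the 4 interferon genes examined were at 0.

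Of 12 cytokine receptors, ligands and signalling genes of dendritic cell progenitors 0 were called by limma, edgeR or DESeq2. At an unadjusted p under 0.05 there were 2 (Csf1r and Csf2rb), beside 9.73% of all genes. Kit, Flt3 and Stat3 had the highest means of this list. Flt3, the receptor through which Flt3 ligand drives pDC development, stood at 22830.0 ± 1827 (SD, n = 4) and 24473 ± 3508 (SD, n = 3) normalised counts (limma adjusted p = 0.794). Csf1r, the receptor of monocyte and macrophage growth factor, was named after its values were seen. It was at 592, 424, 511 and 631 in wild-type libraries and at 870.0, 657 and 708 in those labelled PROSER1 KO, without overlap, but its log2 fold change of 0.47 (0.14 to 0.81) did not pass the test (adjusted p = 0.334).

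Of 15 conventional dendritic cell genes 14 were tested, and 10 had negative and 4 had positive fold changes. At an unadjusted p under 0.05 there were 2 of 14, beside 9.73% of all genes. The limma test called 1 of 14, beside 0.258% of all genes. This was Clec10a, a galactose-binding C-type lectin of conventional dendritic cells and macrophages. It fell in the libraries labelled PROSER1 KO, with 342, 385, 348 and 314 normalised counts in wild-type libraries and 171, 178 and 205 in the others. All wild-type libraries were above all libraries labelled PROSER1 KO, with a log2 fold change of -0.91 (-1.18 to -0.63, limma adjusted p = 0.0186, edgeR 0.0280, DESeq2 6.13e-07). The study lists Clec10a among its changed genes from these libraries, so this is not independent evidence. Without wild-type replicate 1 (adjusted p = 0.0694) or 2 (0.0704), or PROSER1 KO replicate 1 (0.0760) or 2 (0.0829), it was not called. Cd74, Irf4 and H2-Ab1, the genes of this list with the highest means, were not called (adjusted p = 0.597, 0.816 and 0.802), and the median log2 fold change of the list was -0.18. Batf3, a factor of cross-presenting dendritic cells named after its values were seen, was at 40.4, 51.4, 49.4 and 39.4 normalised counts in wild-type libraries and at 22.9, 14.4 and 23.0 in those labelled PROSER1 KO. The groups did not overlap, but its log2 fold change of -1.15 (-1.80 to -0.49) did not pass the test (limma adjusted p = 0.204, edgeR 0.215, DESeq2 0.134).

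**Figure D5:**
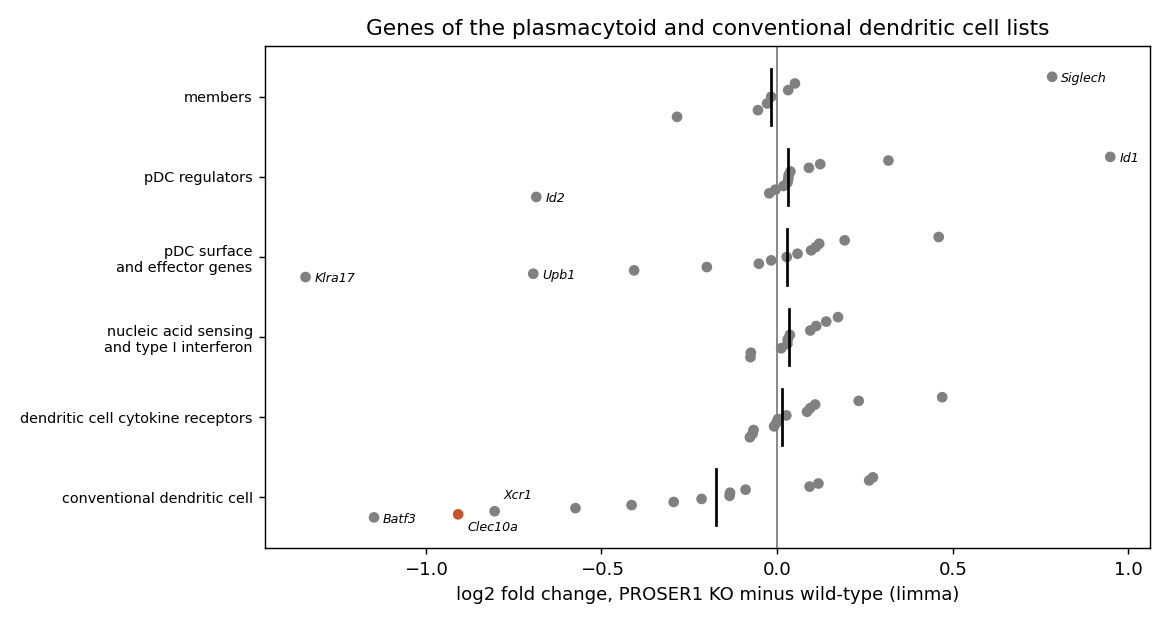
Log2 fold change of PROSER1 KO minus wild-type (horizontal axis, limma) for the members and the genes of 5 lists; black lines are medians, and orange marks a gene past the threshold. Clec10a (-0.91) is the gene marked, and Siglech (0.78) lies apart from the other members without passing the test.

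Other lists bear on what the libraries held, and their counts at an unadjusted p under 0.05 stand beside 9.73% of all genes. In the granulocyte and monocyte list Mpo, Csf3r and Prtn3 had the highest means and 0 of 9 tested genes were called by limma, edgeR or DESeq2 (2 at an unadjusted p under 0.05), with sums of 32801 to 38061 in wild-type libraries and 29942 to 35448 in those labelled PROSER1 KO. The macrophage list summed to 714 to 933 and 846 to 1040 with 0 of 9 called by any of these tools (0 at an unadjusted p under 0.05), and the LSK gate list to 107414 to 119972 and 107741 to 110380 with 0 of 9 called (1 at an unadjusted p under 0.05). No gene of these lists was at 0 in all libraries. In the families of the members, limma, edgeR and DESeq2 called 0 of 9 interferon-regulatory factors (with the number at an unadjusted p under 0.05 in brackets, 2), 0 of 4 Runx family genes (0), 0 of 3 SPI genes (0) and 0 of 9 Siglec genes (1). For the last list the median log2 fold change was 0.24, with 6 higher and 3 lower, and Cd33, the most abundant, stood at 2722 ± 481 (SD, n = 4) and 3736 ± 512 (SD, n = 3) normalised counts (limma adjusted p = 0.309).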

How the data were processed

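Paired-end RNA sequencing covered LSK cells of 4 wild-type and 3 PROSER1 KO samples, grouped by their labels. Libraries were made with a directional kit. Per the paper's methods, the authors used Trimmomatic for trimming, STAR for alignment to mm10, featureCounts for read pairs per gene and DESeq2 for scaling. The deposited values are a normalised signal per gene, that is, counts divided by 1 size factor per library, with no filter on low values. Whole read pairs were recovered for 100% of values within 0.01. The strand setting is not given in the sources used here, and the header of the identifiers names another GENCODE release than the methods. The 685 rows with no symbol, up to 0.135% of the read pairs of a library, were kept.

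The comparison used limma 3.58.1 (R 4.3.3, eBayes with trend) on log2(normalised count + 1) of genes whose mean reached 10. The added 1 can draw fold changes of low genes towards 0. Even so, the log2 fold change of Siglech was larger by limma (0.78) than by edgeR (0.64) or DESeq2 (0.64). edgeR 4.0.16 (quasi-likelihood) and DESeq2 1.42.0 on recovered read pairs were alternatives, and exact permutation tests, two-sided, ran over all 35 splits. p-values were adjusted over all tested genes. On simulated data with 200 genes changed 4-fold, limma recovered 199 with 6 false calls and edgeR 198 with 8, both over 16229 genes, and DESeq2 198 with 19 over 25623 genes. The changed genes were drawn from those with a mean of at least 50 read pairs. The recovery therefore does not measure the power for lower genes or for smaller changes. Positions and exon lengths are from GENCODE M21 (GRCm38), and promoters are from RefSeq.

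Named genes were the 9 members, Proser1, in each list every called gene and the 3 with the highest mean, and the 10 genes most correlated with Siglech. Genes outside this rule are said to have been chosen after their values were seen, apart from genes given to show which libraries were highest or which list genes had an unadjusted p under 0.05. Some listed genes are not reported here by name. Members and lists were chosen with earlier results of these data known.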

Additional observations from a re-analysis of the deposited data

Results flagged for a closer look

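Among 59 named genes, 3 had 1 wild-type library whose gap to the nearest other took a share of their range above Dixon's 95% critical value, which chance gives in about 1 of 20 genes, and the group of 3 libraries was not examined in this way. Spib was at 101 normalised counts in wild-type replicate 1 and at 25.3 to 34.8 in the other wild-type libraries. Siglecg, a B-cell Siglec, was at 781 in the same library and at 718 to 727 in the others. Spi1 was at 3668 in wild-type replicate 3 and at 3094 to 3174 in the others.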

How the results depend on the processing

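The count of 0 called members was the same under all 19 alternatives, and the lowest adjusted p of any member in any of them was 0.402 (Siglech, with the replicate number as a block). Of 125 alternative fold changes of members, 112 kept their direction and 13 turned it, none past the threshold. With the replicate block, in which wild-type replicate 4 has no partner and adds nothing, Ccr9 turned to 0.023. Left-out libraries turned Ccr9 to 0.11 (without wild-type replicate 1), 0.023 (wild-type 4) and 0.12 (PROSER1 KO 2), Irf8 to -0.0099 (wild-type 2), -0.026 (wild-type 3) and -0.14 (PROSER1 KO 1), Tcf4 to -0.014 (wild-type 3) and -0.050 (PROSER1 KO 1), Spib to 0.42 (wild-type 1) and 0.30 (PROSER1 KO 2), and Runx2 to 0.0046 (wild-type 3) and 0.039 (PROSER1 KO 2). Over left-out libraries Siglech ranged from 0.40 to 1.14, Ly6d from -0.49 to -0.062, Ccr9 from -0.23 to 0.12, Irf8 from -0.14 to 0.17, Tcf4 from -0.050 to 0.12, Spib from -0.23 to 0.42 and Runx2 from -0.072 to 0.039. The 42 called genes became 17 without the variance trend, 80 with robust variance estimates and 165 with DESeq2, and 23 to 42 without one library. DESeq2 called 1 pDC regulator (Id2) where limma called 0. The 1 conventional dendritic cell gene (Clec10a) became 0 with the replicate block (adjusted p = 0.0780), and 0 to 1 without one library. The causes were not tested.

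Replicate numbers were not taken as pairs, since the deviations of same-numbered libraries correlated at 0.02, 0.06 and -0.11 and not every library correlated best with its own number; the block gave 35 called genes. Klk1 and Cd209d gave no value in any setting, and Spib fell under the minimum mean of 50. Siglech and Spib rest on 22 to 206 read pairs per library. Their intervals and that of Ly6d, with 1373 to 3347 read pairs, reach past a 1.5-fold change.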
